A study of Mus musculus with 42 samples.

Results

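Macrophages sense where to go through chemoattractant receptors, and the mRNA of 8 of them was followed here in bone marrow-derived macrophages: Ccr1, Ccr2, Cx3cr1, Cxcr4, Ccrl2, Fpr1, Fpr2 and C5ar1. They were picked by symbol, as 8 of the 37310 identifiers in the count table, and all 8 were among the 11624 genes with enough counts to be tested. The donor mice carried the genotype label WT or KO, for the transcription factor gene Irf5. In the study the KO mice carried floxed Irf5 alleles and a Cre recombinase placed in Lyz2, a locus active in myeloid cells, and WT mice served as controls; all were male, and marrow cells were grown into macrophages in L929-conditioned medium before treatment. Each genotype was sampled untreated at 0 h, and after 2 h and 24 h in Control medium, in palmitate, a saturated fatty acid, or in bacterial lipopolysaccharide (LPS, a ligand of TLR4). This gave 14 groups of 3 libraries, 42 in all.

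Most of these receptors are G protein-coupled receptors that read a gradient of a small protein or peptide and turn it into directed movement. Ccr1 binds several CC chemokines. Ccr2 binds Ccl2 and draws monocytes out of the bone marrow. Cx3cr1 binds fractalkine, the product of Cx3cl1, and Cxcr4 binds Cxcl12, which retains leukocytes in the marrow. Fpr1 and Fpr2 recognise formylated peptides of bacteria and mitochondria, and C5ar1 binds the complement fragment C5a. Ccrl2 is an atypical receptor that binds chemerin without signalling through G proteins.

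Total counts ran from 2848793 to 7743442 per library with a median of 5625399. The 4 shallowest libraries held 2848793 to 3849954 counts and were library 1 of LPS 2 h and of Control 24 h in each genotype. Levels are given as CPM, the count relative to the library's total after TMM scaling. In CPM, 3 counts corresponded to at most 1.05, and counting error covers only part of the spread between libraries. Irf5 over the whole gene was not lower in the libraries labelled KO: it read 307, 279 and 328 CPM there at 0 h against 209.5, 230.3 and 222 CPM in WT, so the genotypes are named below as labelled. Reads of the floxed exons were not counted separately. Lyz2, which carries the Cre, was lower in KO in 7 of 7 conditions. Macrophage markers summed to 5206 to 9305 CPM in every library, whereas the T or NK cell list reached at most 2.81 CPM and the granulocyte list of 14 genes summed to 69.6 to 615 CPM. Within that list the neutrophil marker Ly6g was at 0 in 40 of 42 libraries, while Mmp8 read 39.7 to 164 CPM and Ltf, S100a9 and Ngp reached 72.2, 60.2 and 54.7 CPM. The fibroblast list of 5 genes was uneven and summed to 0.380 to 314 CPM.

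Ccr1, Ccr2, Cx3cr1 and Ccrl2 are spread along chromosome 9 of GRCm38. Ccr1 (ENSMUSG00000025804) lies at chr9:123962124-123968692 and Ccr2 (ENSMUSG00000049103) at chr9:124101950-124113557, 133.3 kb apart. Cx3cr1 (ENSMUSG00000052336) lies at chr9:119901616-120069879 and Ccrl2 (ENSMUSG00000043953) at chr9:111054486-111057519. Cxcr4 (ENSMUSG00000045382) is at chr1:128588199-128592293 and C5ar1 (ENSMUSG00000049130) at chr7:16246743-16259540. Fpr1 (ENSMUSG00000045551, chr17:17876471-17883940, minus strand) and Fpr2 (ENSMUSG00000052270, chr17:17887824-17893952, plus strand) are transcribed away from each other across a gap of 3.884 kb. The regions upstream of the annotated starts of Ccrl2, Fpr1 and Fpr2 are shown because these genes had the highest LPS responses. Each is the 250 bases before the start in RefSeq, 5′ to 3′ in the direction of the gene, on GRCm38.p6, at chr9:111057519-111057768 (minus strand), chr17:17883940-17884189 (minus strand) and chr17:17887574-17887823 (plus strand), with a kappaB match in capitals.
Ccrl2: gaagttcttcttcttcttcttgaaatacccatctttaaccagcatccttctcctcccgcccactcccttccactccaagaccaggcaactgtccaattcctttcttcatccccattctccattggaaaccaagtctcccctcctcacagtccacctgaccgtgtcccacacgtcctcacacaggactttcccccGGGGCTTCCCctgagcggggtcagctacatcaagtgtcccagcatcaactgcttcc
Fpr1: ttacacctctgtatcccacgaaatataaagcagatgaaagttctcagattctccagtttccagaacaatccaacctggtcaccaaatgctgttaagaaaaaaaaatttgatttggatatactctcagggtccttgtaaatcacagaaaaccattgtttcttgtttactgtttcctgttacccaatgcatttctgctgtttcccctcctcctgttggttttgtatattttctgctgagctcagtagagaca
Fpr2: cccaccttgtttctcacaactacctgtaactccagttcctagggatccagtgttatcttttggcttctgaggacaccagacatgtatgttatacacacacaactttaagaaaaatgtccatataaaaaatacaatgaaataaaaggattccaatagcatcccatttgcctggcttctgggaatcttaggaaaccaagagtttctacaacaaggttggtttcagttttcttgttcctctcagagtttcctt
Windows of 250 bases before to 50 after the start were searched on both strands for kappaB (GGG, 2 bases of any kind, TT, 1 base of any kind, CC), the interferon-stimulated response element (GAAA, 2 bases of any kind, GAAA), AP-1 (TGANTCA) and PU.1 (GAGGAAG). Among the 10 windows of the 8 receptors, a single match was found, the kappaB letters GGGGCTTCCC at bases -56 to -47 of 1 of the 3 Ccrl2 starts. Over 32851 windows of all genes, 4.79% held the kappaB letters, 3.44% the response element, 7.81% AP-1 and 13.6% PU.1. A match describes letters and not a bound site.

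C5ar1 and Cxcr4 were the most abundant of these mRNAs in untreated cells, and Ccr1 and Ccr2 the least. Compared between genes as CPM per kb of exon in WT Control 0 h (mean ± SD, n = 3), C5ar1 stood at 112 ± 8.22, Cxcr4 at 58.6 ± 6.42 and Fpr1 at 18.7 ± 3.83. Cx3cr1 (2.74 ± 0.485), Fpr2 (2.45 ± 0.622) and Ccrl2 (2.07 ± 0.293) followed, neighbours that did not differ beyond their spread. Ccr1 stood at 1.26 ± 0.22 and Ccr2 at 0.403 ± 0.189. LPS reordered the list. In WT LPS 2 h, Ccrl2 was the second receptor at 124 ± 5.4, behind C5ar1 at 171 ± 8.91. In WT LPS 24 h, Fpr1 led at 171 ± 24.6, followed by Fpr2 at 70.9 ± 16.7 and C5ar1 at 64.8 ± 3.17, with the last pair within their spread.

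**Figure D1:**
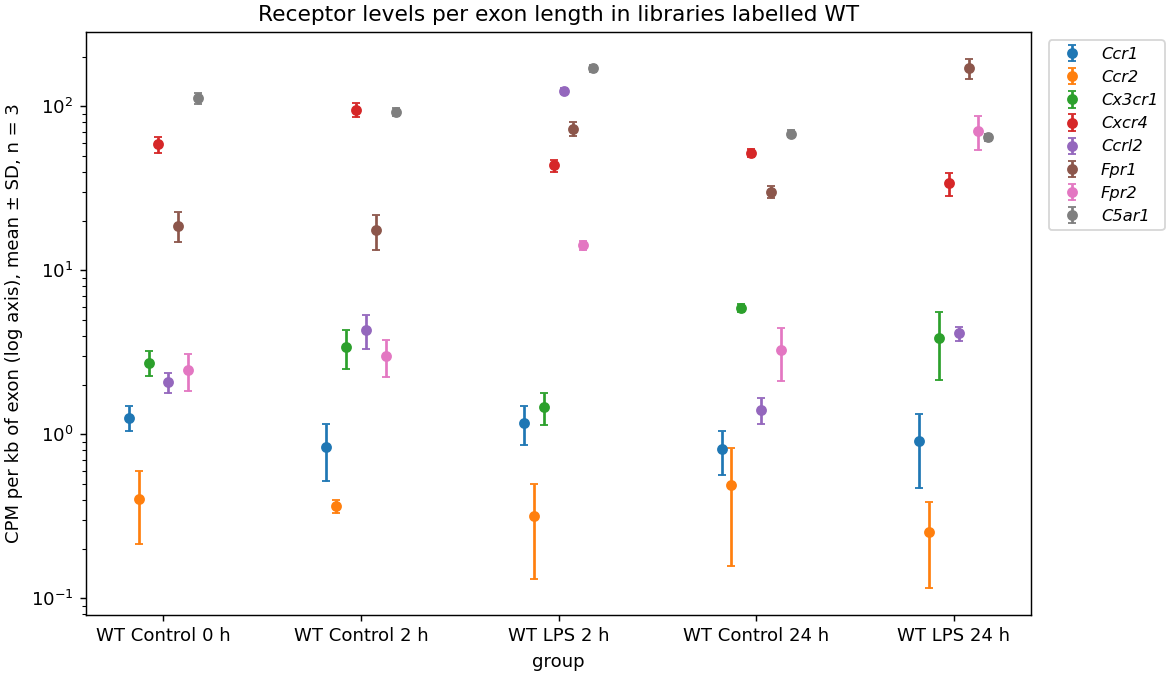
Receptor levels in 5 groups labelled WT, as CPM per kb of exon on a log axis, with points for the mean and bars for the SD of 3 libraries. Ccrl2 climbs from 4.31 in Control 2 h to 124 in LPS 2 h, and Fpr1 and Fpr2 stand above or beside C5ar1 in LPS 24 h.

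LPS for 2 h raised 4 of the 8 receptors and lowered another pair in each genotype. Ccrl2, Fpr1, Fpr2 and C5ar1 rose, and Cx3cr1 and Cxcr4 fell. In all, 6 of 8 were called in WT, where 23.1% of all genes tested were called (14% higher and 9.1% lower), and 6 of 8 in KO, where the share was 23.9% (14.7% higher and 9.16% lower). The median log2 fold change of the 8 was 0.65 in WT and 0.57 in KO, against -0.01 over all genes in either genotype. Calls throughout rest on an adjusted p below 0.05 (edgeR quasi-likelihood test, Benjamini-Hochberg over the 11624 genes). Nothing in the labels says that the 3 libraries of a group came from separate animals, so these p-values measure the spread between libraries, which may be technical.

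Ccrl2, the chemerin-binding receptor, showed the largest change of the 8. It read 309, 337 and 317 CPM in WT LPS 2 h and 10.1, 14.2 and 9.33 CPM in WT Control 2 h. In KO it read 312, 310.0 and 322 CPM with LPS and 11.8, 10.0 and 12.2 CPM in Control 2 h. Treated and control libraries were far apart in both genotypes. On the log2 scale Ccrl2 rose by 4.84 (SE 0.14, adjusted p = 1.05e-32) in WT, or 28.6-fold, and by 4.79 (SE 0.14, adjusted p = 1.98e-32) in KO, or 27.7-fold.

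The formyl peptide receptors rose together at 2 h. Fpr1 reached 98.0, 105 and 86.0 CPM in WT against 29.8, 19.5 and 20.4 CPM in Control 2 h, a 4.17-fold rise (adjusted p = 8.96e-16). Its KO libraries held 129, 105 and 123 CPM against 26.1, 22.2 and 31.05 CPM, a 4.46-fold rise (adjusted p = 6.09e-17). Fpr2 was lower in level but rose by a similar factor. It read 18.2, 19.7 and 17.3 CPM in WT against 4.06, 2.81 and 4.74 CPM, and 25.8, 27.8 and 24.0 CPM in KO against 4.16, 4.83 and 6.11 CPM. Those were changes of 4.71-fold (adjusted p = 5.76e-11) and 5.11-fold (adjusted p = 1.16e-12), with no overlap between LPS and Control libraries. Of the 50-base stretches in Fpr2 transcripts, 31.5% also occur in transcripts of other genes, nearly all of them in Fpr3 or Gm5966. Of the 1275 such stretches in Fpr1, only 1 also occurs in Fpr2. Fpr3, which overlaps Fpr2 on the same strand, had 0 counts in every library, and how the counting treated shared reads is not stated.

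C5ar1, the C5a receptor, rose by less. Its WT libraries held 417, 462 and 436 CPM with LPS at 2 h and 249, 221 and 242 CPM in Control, a 1.85-fold rise (adjusted p = 3e-16). In KO it stood at 524, 475 and 468 CPM against 229, 211 and 211 CPM, a 2.25-fold rise (adjusted p = 1.02e-20). Every LPS library at 2 h lay above every Control library of any time.

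Cxcr4 and Cx3cr1, the receptors of marrow retention and of fractalkine, went the other way. Cxcr4 fell from 177, 186 and 155 CPM in WT Control 2 h to 79.4, 85.3 and 71.9 CPM with LPS, which is 2.19-fold lower (adjusted p = 4.68e-13). In KO it fell from 187, 173 and 169.8 CPM to 55.4, 49.4 and 63.1 CPM, 3.15-fold lower (adjusted p = 3.32e-18). Cx3cr1 was 8.23, 5.55 and 5.94 CPM in WT LPS 2 h against 14.5, 11.7 and 19.9 CPM, 2.44-fold lower (adjusted p = 0.00139). Its KO libraries held 9.87, 15.0 and 10.4 CPM against 43.2, 23.3 and 30.2 CPM, 2.68-fold lower (adjusted p = 2.58e-05). The exons of Cx3cr1 overlap an antisense transcript, Gm33858, that was not in the count table, and whether reads were counted by strand is not stated.

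Ccr1 and Ccr2 were near the limit of what this depth can show, with 7 to 39 and 2 to 42 counts per library. Ccr1 changed at 2 h by 0.41 on the log2 scale in WT (95% interval -0.40 to 1.21) and by -0.03 in KO (-0.83 to 0.77). Ccr2 changed by -0.09 in WT (-1.13 to 0.95) and by -0.48 in KO (-1.42 to 0.46). None passed the test, and changes within these intervals are not excluded at this depth.

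**Figure D2:**
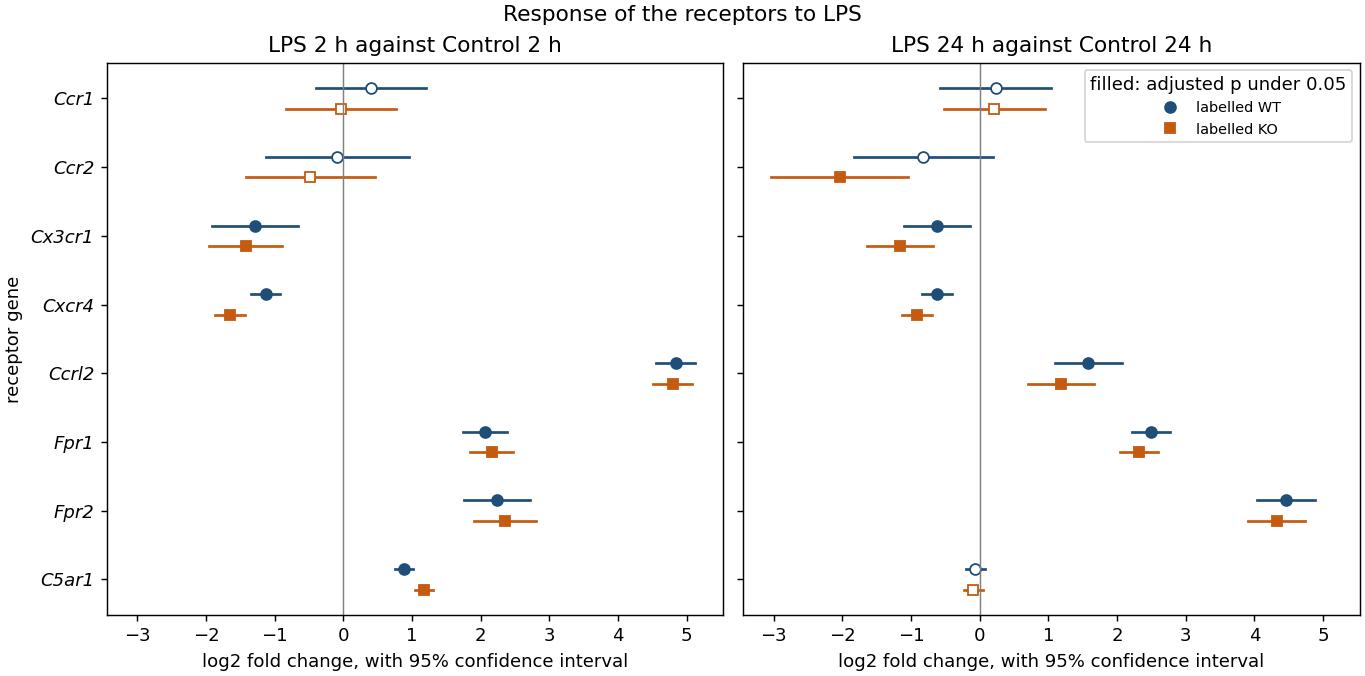
Log2 fold changes of the 8 receptors with LPS against Control at 2 h and 24 h, with 95% confidence intervals; circles are libraries labelled WT, squares KO, and filled symbols passed an adjusted p under 0.05. Ccrl2 stands near 4.8 at 2 h and between 1.19 and 1.58 at 24 h, while Fpr2 moves from 2.24 and 2.35 to 4.46 and 4.32.

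By 24 h of LPS the largest change among the receptors had passed from Ccrl2 to Fpr2. Fpr1 was also raised, but its response at 24 h did not pass the test against that at 2 h, given below. Fpr2 reached 77.9, 117 and 80.8 CPM in WT against 4.49, 5.66 and 2.62 CPM in Control 24 h, a 22.01-fold rise (adjusted p = 4.5e-24). In KO it stood at 89.6, 75.6 and 84.9 CPM against 2.98, 5.65 and 3.68 CPM, a 19.98-fold rise (adjusted p = 1.24e-23). LPS and Control libraries were far apart in each genotype. Fpr1 stood at 224, 259 and 194 CPM against 36.2, 42.5 and 40.6 CPM in WT, 5.62-fold higher (adjusted p = 5.95e-21). In KO it stood at 234, 182 and 221 CPM against 46.9, 43.7 and 38.5 CPM, 4.98-fold higher (adjusted p = 6.77e-20). Fpr1 and Fpr2 thus had the same order of groups at the top, LPS 24 h first and LPS 2 h second, in both genotypes.

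Ccrl2 remained above its 24 h Control but at a small part of its 2 h level. It read 9.76, 10.6 and 11.8 CPM in WT against 3.93, 4.11 and 2.91 CPM, a 2.99-fold rise (adjusted p = 3.07e-07). In KO it read 8.20, 8.22 and 10.8 CPM against 5.71, 3.28 and 3.54 CPM, a 2.28-fold rise (adjusted p = 5.53e-05). The 24 h LPS levels in WT overlapped those of Control 2 h. C5ar1 was back at its Control, with 169, 173 and 158 CPM in WT against 184, 173 and 167 CPM, and log2 changes of -0.07 (95% interval -0.20 to 0.07) in WT and -0.10 (-0.24 to 0.04) in KO.

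The receptors lowered at 2 h were also lower at 24 h. Cxcr4 fell 1.54-fold in WT (52.5, 71.8 and 59.6 CPM against 88.1, 97.7 and 96.3 CPM, adjusted p = 3.12e-06) and 1.89-fold in KO (adjusted p = 4.98e-10). Cx3cr1 fell 2.23-fold in KO, from 36.7, 36.1 and 31.7 CPM to 16.8, 12.3 and 17.1 CPM (adjusted p = 7.34e-05). In WT, its change of -0.62 on the log2 scale (adjusted p = 0.0355) came with overlapping libraries, at 12.7, 26.1 and 13.2 CPM with LPS against 24.7, 27.4 and 27.4 CPM. That call was lost in DESeq2 (adjusted p = 0.0804) and when any of 4 libraries was left out (adjusted p = 0.0886 to 0.201), namely libraries 1 and 3 of WT LPS 24 h and 2 and 3 of WT Control 24 h. Ccr2 fell 4.11-fold in KO, from 4.47, 5.10 and 5.66 CPM to 1.19, 1.87 and 0.732 CPM (adjusted p = 0.000679). In WT it read 1.03, 1.32 and 2.76 CPM against 5.90, 1.71 and 2.33 CPM and did not pass the test (log2 fold change -0.82, SE 0.51, adjusted p = 0.207). Ccr1 showed 0.23 in WT and 0.21 in KO on the log2 scale, and neither passed. At 24 h, 5 of 8 receptors were called in WT, with 39.5% of all genes called, and 6 of 8 in KO, with 40.9%.

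The difference between the 24 h and the 2 h responses was itself tested over both genotypes, with each time point set against its own Control. It was called for 4 of 8 receptors, at a background of 46.3% of all genes. The Ccrl2 response was lower by 3.43 on the log2 scale at 24 h (SE 0.23, adjusted p = 7.56e-18) and that of C5ar1 by 1.11 (SE 0.07, adjusted p = 1.27e-19). The Fpr2 response was higher by 2.10 (SE 0.24, adjusted p = 2.27e-10) and that of Cxcr4, less negative at 24 h, by 0.62 (SE 0.11, adjusted p = 2.88e-06). Fpr1 (0.29, adjusted p = 0.102), Cx3cr1 (0.46, adjusted p = 0.157) and Ccr2 (-1.14, adjusted p = 0.0565) did not pass by edgeR, and DESeq2 called Ccr2 (adjusted p = 0.0396).

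Lists of genes that mark other cells moved with LPS as well. The granulocyte list of 14 genes summed to 425 to 615 CPM in WT LPS 24 h and 402 to 490 CPM in KO LPS 24 h, against 151 to 157 CPM and 237 to 323 CPM in their Controls. Its highest member, Lcn2, reached 421 CPM. Of its 8 tested genes, 2 rose and 4 fell in WT at 24 h, where 39.5% of all genes were called. At LPS 2 h the granulocyte list summed to 96.6 to 128 CPM in WT against 69.6 to 80.9 CPM, with 4 of 8 genes risen and 0 fallen. In KO it summed to 190 to 306 CPM against 125 to 199 CPM, with 2 risen and 0 fallen. Of all genes, 14% rose and 9.1% fell in WT at 2 h, and 14.7% rose and 9.16% fell in KO. The monocyte list of 8 genes summed to 328 to 333 CPM in WT LPS 24 h against 114 to 133 CPM, and to 343 to 355 CPM in KO against 141 to 148 CPM. Over all libraries, F13a1 of that list ranged from 12.3 to 301 CPM, Ms4a4c from 0 to 215 CPM and Hp from 1.60 to 113 CPM. The sum therefore does not show how its single members moved, nor a number of monocytes. Whether cells marked by these lists had a part in the rise of Fpr1 and Fpr2 was not tested. In such bulk libraries, fewer cells with a transcript and less of it per cell cannot be told apart.

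Control medium alone shifted several receptors, so each treatment is read against the Control of its own time. From 0 h to 2 h, over both genotypes, Ccrl2 rose 2.12-fold (adjusted p = 1.57e-07) and Cxcr4 1.51-fold (adjusted p = 8.14e-10), and C5ar1 fell 1.18-fold (adjusted p = 6.56e-05). From 0 h to 24 h, Cx3cr1 rose 1.63-fold (adjusted p = 0.00179) and Fpr1 1.401-fold (adjusted p = 0.00149), whereas C5ar1 fell 1.58-fold (adjusted p = 2.25e-15) and Cxcr4 1.20-fold (adjusted p = 0.00707). At 2 h 3 of 8 receptors were called, where 16.7% of genes were, and at 24 h 4 of 8, where 16.5% were.

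**Figure D3:**
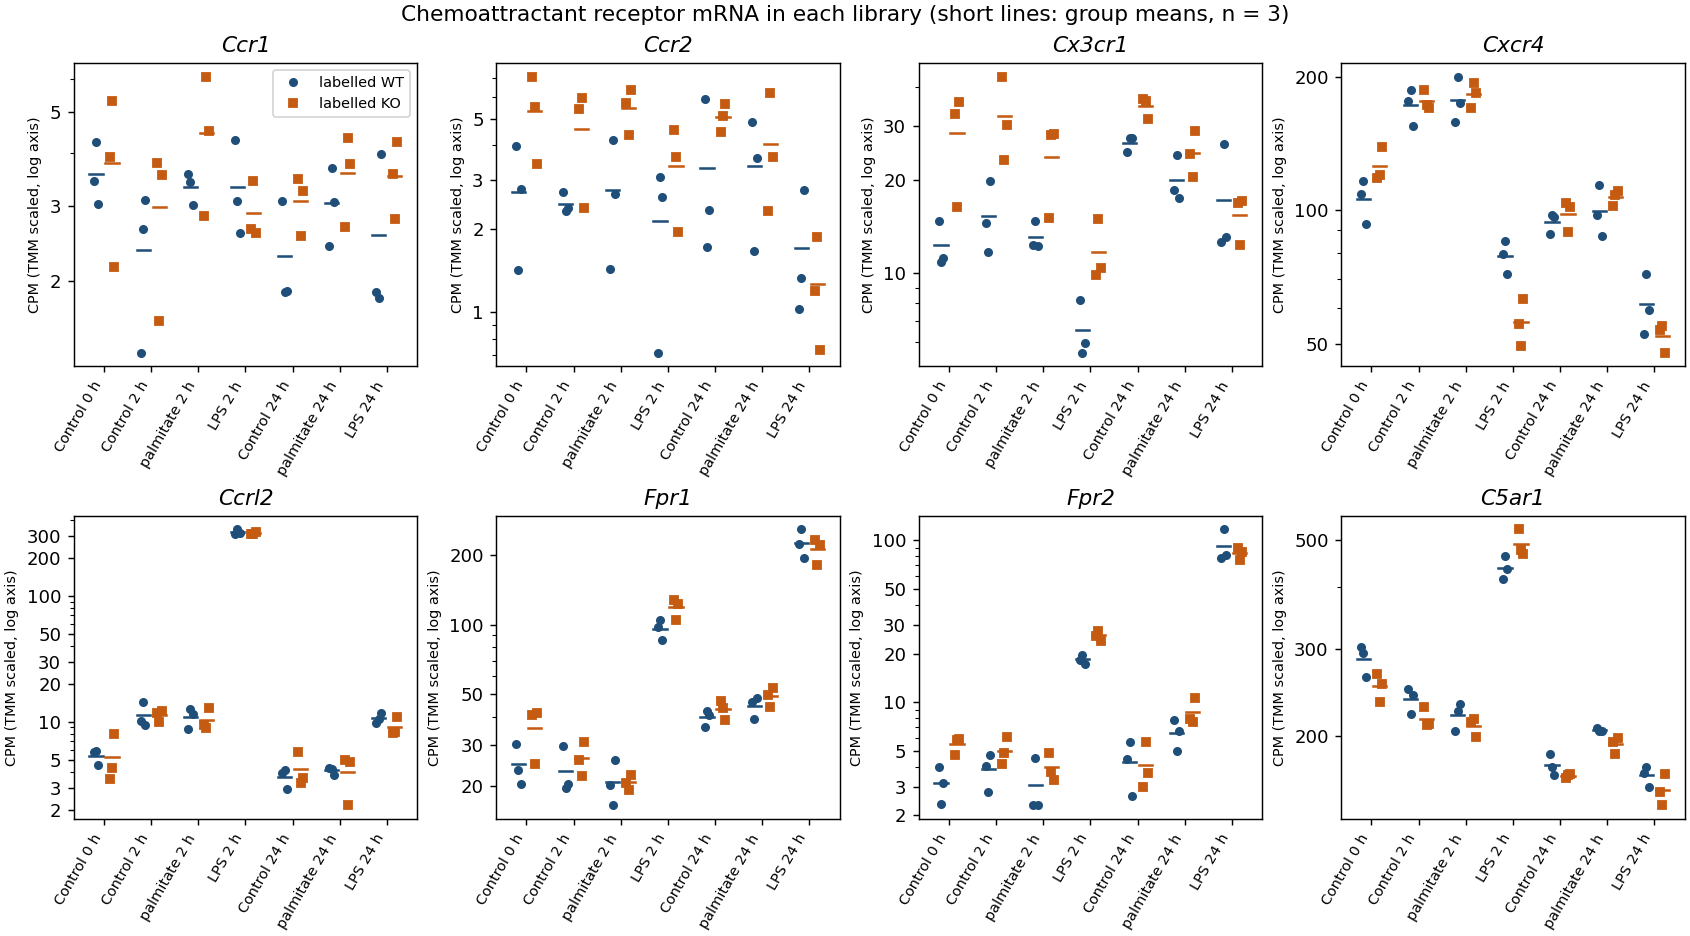
TMM-scaled CPM of each receptor in all 42 libraries on log axes that differ between panels, with circles for libraries labelled WT, squares for KO and short lines for group means (n = 3). Ccrl2 and C5ar1 peak in LPS 2 h, Fpr1 and Fpr2 in LPS 24 h, and the palmitate groups lie close to their Controls.

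Palmitate left most of these receptors close to Control. At 2 h, 0 of 8 were called in either genotype by edgeR or by DESeq2, and 0 had an unadjusted p under 0.05. Of all genes, 0.275% were called in WT and 0.112% in KO, and 7.45% and 4.61% had an unadjusted p under 0.05. At 24 h, 0 of 8 were called in WT (2 at an unadjusted p under 0.05, as had 9.02% of genes, and 1 by DESeq2) and 1 of 8 in KO, against 0.852% and 0.877% of genes. The receptor called was Fpr2, at 7.86, 7.61 and 10.6 CPM in KO palmitate 24 h against 2.98, 5.65 and 3.68 CPM in Control. Its libraries did not overlap, and the rise was 2.11-fold (adjusted p = 0.0182). This call was lost without library 1 or 3 of KO Control 24 h or library 3 of KO palmitate 24 h (adjusted p = 0.141 to 0.273), and library 1 of that Control is among the 4 shallowest. In WT, Fpr2 read 7.78, 4.99 and 6.68 CPM against 4.49, 5.66 and 2.62 CPM, a log2 difference of 0.64 (95% interval 0.09 to 1.19, adjusted p = 0.413).

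C5ar1 was slightly above Control with 24 h of palmitate in all libraries. It read 208, 204 and 205 CPM in WT against 184, 173 and 167 CPM, and 194, 184 and 199 CPM in KO against 164, 167 and 168 CPM. The log2 differences of 0.24 (adjusted p = 0.078) and 0.21 (adjusted p = 0.188) did not pass by edgeR, and DESeq2 called the first (adjusted p = 0.0396). The palmitate response at 24 h exceeded that at 2 h for C5ar1 by 0.30 (SE 0.07, adjusted p = 0.00862) and for Fpr2 by 1.21 (SE 0.28, adjusted p = 0.0122), where 1.28% of genes were called. Part of each difference lay at 2 h, where means with palmitate were below Control without a call. C5ar1 stood there at 221 CPM against 237 CPM in WT and 210 against 217 CPM in KO. Fpr2 stood at 3.07 CPM against 3.87 CPM in WT and 3.97 against 5.03 CPM in KO. Cx3cr1 showed log2 differences of -0.41 in WT (adjusted p = 0.647) and -0.49 in KO (adjusted p = 0.564) at 24 h, neither of which passed.

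Between genotypes, the clearest difference was in Cx3cr1. At Control 0 h it read 32.8, 16.4 and 35.98 CPM in the libraries labelled KO and 14.8, 10.9 and 11.2 CPM in those labelled WT. The groups did not overlap, although library 2 of KO lay close to WT, and the level was 2.31-fold higher in KO (adjusted p = 0.000663). At Control 2 h it was 43.2, 23.3 and 30.2 CPM in KO against 14.5, 11.7 and 19.9 CPM in WT, 2.08-fold higher (adjusted p = 0.0261). That second call was lost without library 1 or 2 of WT Control 2 h or library 1 of KO Control 2 h (adjusted p = 0.127 to 0.316). In the other conditions the log2 difference of KO to WT was 0.86 with palmitate 2 h (adjusted p = 0.187), 0.92 with LPS 2 h (adjusted p = 0.237), 0.38 in Control 24 h (adjusted p = 1), 0.30 with palmitate 24 h (adjusted p = 0.828) and -0.15 with LPS 24 h (adjusted p = 0.904). The difference at Control 0 h exceeded that at Control 24 h by 0.83 (SE 0.34), which did not pass (adjusted p = 0.233, with 1.83% of genes called).

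At Control 0 h, 3 of 8 receptors were called between genotypes, where 12.5% of all genes were, a share that was 0.49% in Control 2 h, 0.146% with palmitate 2 h, 0.465% with LPS 2 h, 0.12% in Control 24 h, 0.0688% with palmitate 24 h and 0.146% with LPS 24 h. Beside Cx3cr1, Fpr1 was 1.45-fold higher in KO (40.8, 24.999 and 41.4 CPM against 30.4, 23.5 and 20.5 CPM, adjusted p = 0.0264), with overlapping libraries. C5ar1 was 1.14-fold lower (267, 234 and 255 CPM against 303, 295 and 263 CPM) and sat at the threshold itself (adjusted p = 0.05 after rounding). It was not called by DESeq2 (adjusted p = 0.0553), nor with RLE scaling (adjusted p = 0.066), without the filter on low counts (adjusted p = 0.121) or with only the groups compared (adjusted p = 0.1), nor without any one of the libraries other than library 3 of WT (adjusted p = 0.0545 to 0.302). Fpr2 was 1.75-fold higher (4.71, 5.82 and 5.94 CPM against 3.98, 2.37 and 3.18 CPM) without passing by edgeR (adjusted p = 0.0551), and was called by DESeq2 (adjusted p = 0.0392). Ccr2 showed a log2 difference of 0.97 (adjusted p = 0.15) and Cxcr4 one of 0.25 (adjusted p = 0.0904). The Fpr1 call was lost without library 2 or 3 of WT, or 1 or 3 of KO (adjusted p = 0.0787 to 0.184).

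Markers of other cells also differed between these genotypes. At Control 0 h the monocyte list summed to 191 to 314 CPM in KO and 122 to 133 CPM in WT, the granulocyte list to 139 to 154 CPM and 105 to 120.0 CPM, and the fibroblast list to 42.6 to 70.2 CPM and 0.905 to 1.42 CPM. At Control 2 h the monocyte list did not lie higher in KO, at 127 to 148 CPM against 148 to 190.3 CPM, and the granulocyte list did, at 125 to 199 CPM against 69.6 to 80.9 CPM. The fibroblast list lay higher there too, at 119, 78.4 and 73.1 CPM in KO against 2.52, 59.7 and 2.82 CPM in WT. Their part in the Cx3cr1 and Fpr1 differences was not tested.

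Cxcr4 differed between genotypes with LPS at 2 h, as the single receptor called of 8, where 0.465% of genes were. It read 55.4, 49.4 and 63.1 CPM in KO against 79.4, 85.3 and 71.9 CPM in WT, 1.41-fold lower without overlap (adjusted p = 0.034). In the same libraries the granulocyte list summed to 190 to 306 CPM in KO and 96.6 to 128 CPM in WT, with Ngp, Ltf and Lcn2 called higher in KO, and its part in the Cxcr4 difference was not tested. The LPS response of Cxcr4 was more negative in KO by 0.52 on the log2 scale (95% interval of the difference -0.83 to -0.22), but the test of that difference did not pass (adjusted p = 0.342). The genotype call was lost when the fit was limited to those groups (adjusted p = 0.161), without the 4 shallowest libraries (adjusted p = 0.173), and without library 1 or 2 of either group (adjusted p = 0.0834 to 0.184). In the 4 tests of a treatment response between genotypes, 0 of 8 receptors passed by edgeR and 0 by DESeq2. At an unadjusted p under 0.05 there were 2 of 8 for LPS 2 h, Cxcr4 and C5ar1, and 0 for the others. Of all genes, 6.97% had such a p for LPS 2 h, 5.4% for LPS 24 h, 4.18% for palmitate 2 h and 3.54% for palmitate 24 h, and 0.0086% were called for LPS 24 h and 0.0% for the other 3. For LPS 24 h the response in KO minus that in WT was -1.22 (95% interval -2.67 to 0.23) for Ccr2 and -0.53 (-1.22 to 0.15) for Cx3cr1. Each interval still holds a response more than 2-fold lower in KO. Leaving out single libraries moved the Ccr2 value over -1.80 to -0.68 and the Cx3cr1 value over -0.71 to -0.11.

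**Figure D4:**
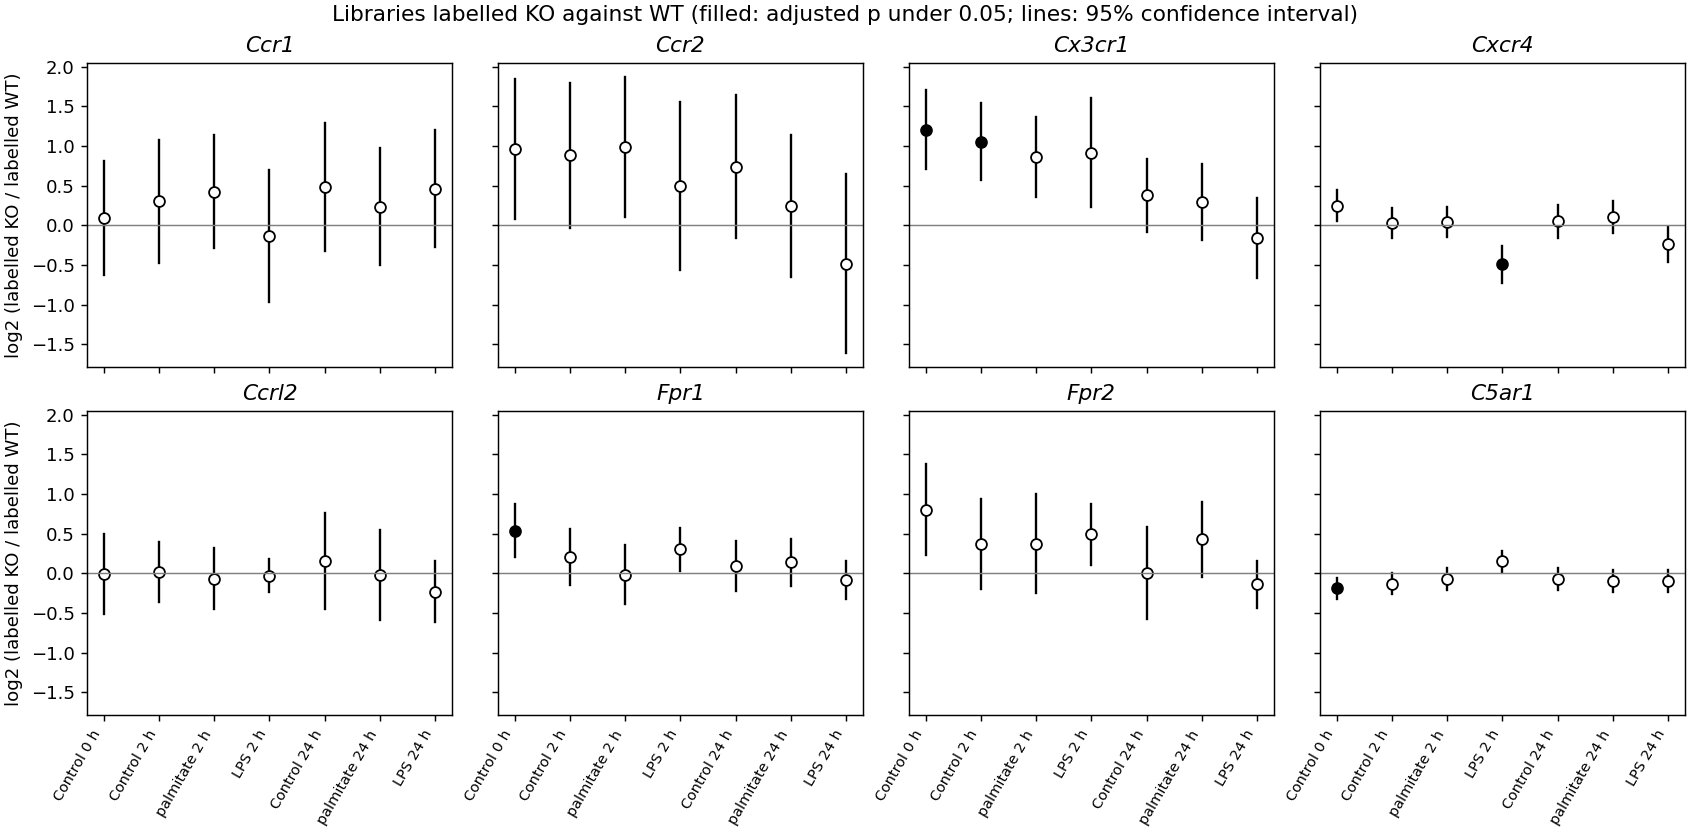
Log2 ratio of libraries labelled KO to those labelled WT for each receptor in the 7 conditions, with 95% confidence intervals (3 libraries a group); filled symbols passed an adjusted p under 0.05. Cx3cr1 lies at 1.21 and 1.06 in Control 0 h and 2 h and at -0.15 in LPS 24 h, and Ccrl2 lies near 0 throughout.

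Many ligand genes of these receptors rose with LPS. Of 18 ligand genes 15 were tested. At 2 h in WT 10 rose and 0 fell, with a median log2 fold change of 1.51, where 14% of all genes rose and 9.1% fell. In KO 9 rose and 1 fell, where 14.7% of all genes rose and 9.16% fell. Among those with the largest changes in WT were Ccl12 and Ccl7, which bind Ccr2, at 6.37 and 5.00, and Ccl4 at 5.10. The size of the Ccl12 change is uncertain, since its WT Control 2 h mean was below that of 3 counts. It read 0.120 ± 0.105 CPM there against 10.8 ± 4.04 CPM with LPS (mean ± SD, n = 3). At 24 h 9 rose and 2 fell in WT, where 39.5% of all genes were called, led by Ccl5 (8.29), a ligand of Ccr1, and Saa3 (6.51), an acute-phase protein. Anxa1, whose product is a ligand of Fpr2, fell by 0.89 at 24 h (adjusted p = 2.97e-10). The fractalkine gene Cx3cl1 fell by 2.50 (adjusted p = 0.0013), but at very low levels. It read 0.310 ± 0.403 CPM in WT LPS 24 h, a mean below that of 3 counts, against 1.97 ± 0.331 CPM in Control 24 h. With palmitate at 24 h, 1 ligand gene rose in WT and 1 fell, where 0.852% of all genes were called. Anxa1 rose by 0.44 (adjusted p = 0.00992) and Ccl4 fell by 0.95 (adjusted p = 0.000831). Cxcl12, Hc (complement C5) and Rarres2 (chemerin), the genes of the ligands of Cxcr4, C5ar1 and Ccrl2, had too few counts to be tested, with at most 4 counts in a WT library with LPS or in Control.

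Other chemoattractant receptors responded in either direction. Of 36, only 14 had enough counts to be tested. At LPS 2 h in WT, 3 rose and 3 fell, where 23.1% of all genes were called. Ptafr, the receptor of platelet-activating factor, rose by 1.42 on the log2 scale (adjusted p = 1.43e-19) and Cmklr1, the signalling receptor of chemerin, by 0.25 (adjusted p = 0.0152). C5ar2, the second C5a receptor, fell by 0.64 (adjusted p = 0.024), whereas C5ar1 rose. At 24 h in WT, 4 rose and 7 fell, against 39.5% of all genes called, with a median log2 fold change of -0.62. Cmklr1 rose by 1.05 (adjusted p = 3.06e-16). Nrp1 fell by 1.44 (adjusted p = 2.05e-24) and Gpr183, an oxysterol receptor, by 2.05 (adjusted p = 5.33e-06). In Control 0 h, where 12.5% of all genes were called, 1 was higher and 6 were lower in KO, among them Nrp1, with a log2 difference of -0.45 (adjusted p = 1.13e-06).

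Downstream, 36 of 37 genes of receptor signalling and chemotaxis were tested. In WT 12 rose and 3 fell at LPS 2 h, and 21 rose and 5 fell at 24 h, where 23.1% and 39.5% of all genes were called. Pik3r5, the regulatory subunit of the phosphoinositide 3-kinase that G protein βγ subunits switch on, rose by 1.22 at 2 h (adjusted p = 1.27e-24). Rac2, a GTPase of the leukocyte cytoskeleton, rose by 1.37 (adjusted p = 1.95e-22) at 24 h. Elmo1, which helps to activate Rac, fell by 0.70 (adjusted p = 1.1e-10).

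Across the 14 group means, the genes with the pattern most like each receptor were sought among 9907 genes by Pearson correlation of log2(CPM + 1). These correlations describe 14 points that share libraries and treatments, and say nothing of shared function. Ccrl2 was closest to Nfkb1 (r = 0.996), which encodes an NF-kappaB subunit, and to Mtmr14 (r = 0.995). Fpr2 was closest to Acsl1 (r = 0.99), an acyl-CoA synthetase, and Osbpl3 (r = 0.982), and Fpr1 to Psma4 (r = 0.982) and Tarm1 (r = 0.9749). Cxcr4 was closest to Rab7b (r = 0.958) and Elf2 (r = 0.953), and C5ar1 to Fchsd2 (r = 0.955) and Abhd17c (r = 0.955). Cx3cr1 (Ints6l and Arhgap45, each r = 0.888) and Ccr2 (Dock5, r = 0.93, and Ncapd3, r = 0.925) had weaker matches, and Ccr1 was too low for this measure. Among the receptors themselves, Fpr1 and Fpr2 had r = 0.968 and Ccrl2 and C5ar1 r = 0.843, while Fpr1 and Cxcr4 had r = -0.922.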

How the data were processed

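Total RNA of 42 macrophage libraries was sequenced on a NovaSeq after ribosomal depletion with a stranded low-input kit. Per the labels and the study's methods, the authors trimmed reads with fastp 0.19.11, aligned them with STAR 2.7.3a to mm10 and deposited raw counts per Ensembl gene. The submitters' processing notes also list mm9. The annotation release and the use of strand in counting are not given in the sources used here. The table held 37310 identifiers, of which 32620 matched a symbol. Columns name a group but not a replicate, so libraries are numbered by column.

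Counts were filtered with filterByExpr (11624 genes kept) and scaled by TMM. All 42 libraries were fitted with 1 mean per group by edgeR 4.0.16 quasi-likelihood (R 4.3.3), with Benjamini-Hochberg adjustment over all genes tested in each of 25 comparisons. SEs were derived as the log2 fold change over the square root of F. On simulated counts for LPS 2 h in WT (11376 genes, 200 changed), 73.3% of 2-fold and 91.9% of 4-fold changes were recovered, with 4.07% false calls. The simulated counts were drawn around each gene's mean over all 42 libraries, and the rates pool genes of all levels. They do not give the rates for low-count receptors such as Ccr1 and Ccr2. Nor do they give those for the real comparison, where 2686 genes were called. Alternatives were DESeq2 1.42.0, RLE size factors, no low-count filter, fits of only the groups compared, and leaving out single libraries. An alternative chosen after seeing the data left out the 4 shallowest libraries, which held 2848793 to 3849954 counts. Replicates differed beyond sampling noise in all 42 pairs (chi-square per degree of freedom 1.931 to 9.324), so none was merged.

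The receptors and the gene lists were chosen with earlier results of these data known. All 8 receptors were tested in every comparison. Each edgeR call is given, and uncalled values are given only in part. From each list of other receptors, ligands and signalling genes, named genes came from the 3 called in WT with the largest change per direction and a highest group mean of at least 5 CPM, and the 2 genes most like each receptor by Pearson r. Cxcl12, Hc and Rarres2 were named after their values were seen. Gene positions are from GENCODE on GRCm38 and promoters from RefSeq on GRCm38.p6. Protein sequences were not used here. Some genes of the lists are not reported here by name.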

Additional observations from a re-analysis of the deposited data

Results flagged for a closer look

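The LPS response of 4 receptors differed between 24 h and 2 h when the difference itself was tested over both genotypes by edgeR, a test that also called 46.3% of all genes. On the log2 scale, the 24 h response minus the 2 h response was -3.43 for Ccrl2 and -1.11 for C5ar1, whose responses were smaller at 24 h, and 2.10 for Fpr2, whose response was larger. For Cxcr4 it was 0.62, with a lower Control at 24 h and no higher level with LPS. Its mean in Control was 173 CPM in WT and 177 CPM in KO at 2 h, and 94.1 and 98.3 CPM at 24 h. With LPS it was 78.9 CPM in WT and 56.0 CPM in KO at 2 h, and 61.3 and 52.1 CPM at 24 h. The palmitate response also differed between 24 h and 2 h for Fpr2 (1.21) and C5ar1 (0.30), both higher at 24 h, where 1.28% of all genes were called. For C5ar1 this sign was opposite to that of its LPS difference. Means of both with palmitate at 2 h lay below Control without a call. For C5ar1 no palmitate group passed against its own Control by edgeR.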

How the results depend on the processing

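Of 200 values (8 receptors in 25 comparisons), 42 were called, and 36 of these kept direction and call under every alternative run. The other 6 kept their direction and lost the call under some setting, as given with each in the report, and 14 uncalled values were called under some setting. Signs changed in 172 of 2791 alternative values, all of them uncalled. Among the printed values, without the 4 shallow libraries Ccr2 with LPS 2 h in WT came to 0.20 and Ccr1 with LPS 2 h in KO to 0.0021. Leaving out single libraries moved Ccr2 with LPS 2 h in WT over -0.39 to 0.20, Ccr1 with LPS 2 h in KO over -0.34 to 0.16, Ccr1 with LPS 24 h in WT over -0.24 to 0.45, and Cx3cr1 in KO against WT at LPS 24 h over -0.34 to 0.26. The causes were not tested.

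Receptors called in palmitate 24 h went from 0 to 1 in WT by DESeq2, and in KO from 1 to 2 in a fit of only the groups compared (Cx3cr1 added, adjusted p = 0.0343) and to 0 without the shallow libraries. KO against WT went from 0 to 1 with palmitate 2 h (Cx3cr1) without the filter or with only the groups compared, and with LPS 2 h from 1 to 2 without the filter, and to 0 with only the groups compared or without the shallow libraries. Without the filter, the LPS 2 h response between genotypes went from 0 to 1 (Cxcr4, adjusted p = 0.0177), the LPS 24 h minus 2 h response from 4 to 7, and the Control 0 h minus 24 h genotype difference from 0 to 1. Leaving out single libraries gave 0 to 1 for palmitate 24 h in KO, for KO against WT at Control 2 h and LPS 2 h, and for the Control 0 h minus 24 h difference, and 1 to 2 at Control 0 h, where 3 were called in full.

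Counts over all genes moved more. Without the filter, or with only the groups compared, palmitate 2 h went from 32 to 76 or 83 genes in WT and from 13 to 34 or 21 in KO (20 by DESeq2), and palmitate 24 h from 102 to 182 or 226 in KO; in WT it went from 99 to 167 without the filter. KO against WT went from 57 to 176 or 235 at Control 2 h and from 54 to 190 or 23 at LPS 2 h. It went from 17 to 130 or 96 with palmitate 2 h (35 by DESeq2), from 14 to 55 or 52 at Control 24 h, from 8 to 75 or 20 with palmitate 24 h (15 by DESeq2) and from 17 to 112 or 9 with LPS 24 h (33 by DESeq2). Without the shallow libraries it was 34 at LPS 2 h and 6 at Control 24 h. The LPS response between genotypes went without the filter from 0 to 43 genes at 2 h and from 1 to 26 at 24 h, and that of palmitate from 0 to 16 and from 0 to 9. Leaving out single libraries gave 9 to 32 genes for palmitate 2 h in WT and 6 to 10 in KO, 51 to 95 and 48 to 76 for palmitate 24 h, and for KO against WT 731 to 1374 (from 1448) at Control 0 h, 11 to 69 at Control 2 h, 5 to 21 with palmitate 2 h, 7 to 11 at Control 24 h, 4 to 24 with palmitate 24 h and 9 to 27 with LPS 24 h. For the Control 0 h minus 24 h difference it gave 57 to 420. The Control 0 h minus 24 h difference went from 213 to 367 or 409 (320 by DESeq2, 130 without the shallow libraries). The palmitate 24 h minus 2 h response went from 149 to 309 or 285. No paired analysis was possible because the columns carry no replicate numbers. Depth limits Ccr1 and Ccr2 most, with at most 42 counts in a library.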
